A study of Homo sapiens with 12 samples.

Results

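The 10 genes described here control apoptosis, the programme by which a cell takes itself apart. They are 7 members of the BCL2 family (BCL2, BCL2L1, MCL1, BCL2A1, BCL2L11, BBC3 and PMAIP1) and 3 apoptosis inhibitors outside that family (CFLAR, BIRC3 and XIAP). They were chosen by symbol, with earlier results of these data known, out of the 26210 genes of a table of transcript levels. Levels are in FPKM, fragments per kilobase of transcript scaled between libraries. All 10 genes passed a filter of at least 1 FPKM in at least 2 of 12 libraries, as did 14679 genes in all. 7 of them reached 1 FPKM in all 12 libraries, while BCL2A1, BCL2L11 and BIRC3 did so in 10.

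Apoptosis starts either at the mitochondria or at death receptors on the cell surface. At the mitochondria, the survival proteins BCL2, BCL-xL (the product of BCL2L1), MCL1 and A1 (BCL2A1) hold back BAX and BAK, which would otherwise open the outer membrane. The BH3-only proteins BIM (BCL2L11), PUMA (BBC3) and NOXA (PMAIP1) bind the survival proteins and release that block. At death receptors such as FAS, the CFLAR product c-FLIP keeps caspase-8 from being activated, cIAP2 (BIRC3) is a ubiquitin ligase of the TNF receptor complex, and XIAP binds and inhibits the executioner caspases. BCL2A1, BIRC3 and CFLAR are known targets of NF-κB, a transcription factor that is constitutively active in the tumour cells of classical Hodgkin lymphoma (cHL).

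The study sequenced total RNA, depleted of ribosomal RNA, from 5 human B-lineage tumour cell lines. KM-H2, L1236 and L428 are cHL lines and were grown in IMDM. The controls, grown in RPMI, were Namalwa, from a Burkitt lymphoma, and Reh, from a B-cell precursor leukaemia. Medium and diagnosis thus went together, and their parts in any difference between cHL and control lines cannot be told apart. Reh was also sequenced after treatment with 2 ng/ml PMA (phorbol myristate acetate), an activator of protein kinase C, for a time that the labels of these libraries do not give. The other 5 conditions were untreated. Each of the 6 conditions had 2 libraries, here called library 0 and library 1 after their columns, and values are given in that order. The sources do not say whether the 2 libraries came from separate cultures, so p-values measure the spread between libraries, which may be technical.

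The labels were checked against marker genes. In the 3 cHL lines, 5 or 6 of 6 Hodgkin markers (TNFRSF8, CCL17, FSCN1, IRF4, CSF1R and JUNB) reached 1 FPKM, with summed levels of 452 to 1823 FPKM, against 33.9 to 51.8 FPKM in untreated Reh and Namalwa. PMA-treated Reh, however, had sums of 288 and 226 FPKM, most of it JUNB (245 and 188 FPKM), and its CSF1R (11.8 and 11.2 FPKM) was above that of every cHL library (at most 2.05 FPKM). Reh expressed the precursor genes DNTT and RAG1, with means of 95.5 and 410 FPKM, although VPREB1 of the same list was at 0. The PMA-treated libraries showed the immediate response gene EGR1 at 62.1 and 76.2 FPKM, against 0.138 and 0.0349 FPKM in untreated Reh. Among markers of other cell types, KM-H2 showed the T-cell gene CD3D (13.5 and 22.5 FPKM) and the monocyte gene CD14 (5.79 and 4.56 FPKM). In the same 2 libraries CD3E was at 0.197 and 0 FPKM, LYZ at 0.591 and 0.255 FPKM and the fibroblast genes COL1A1 at 1.06 and 3.67 FPKM and COL1A2 at 0 in both. The myeloid gene MPO was at 24.8 and 32.0 FPKM in untreated Reh, 6.44 and 5.00 FPKM after PMA, 0 and 5.35 FPKM in L428, and 0 in the other lines. CD14 and LYZ of the same list were at most 0.139 and 0.759 FPKM in Reh, 0.0478 and 0.365 FPKM after PMA, and 0.0549 and 0 FPKM in L428.

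The libraries differed in depth and in how well the duplicates matched. Depth was judged from the most frequent ratio of low values between a library and Reh library 0, and taken as its inverse. Low values were those above 0 in both libraries with a mean under 0.3 FPKM. Depth so judged ran from 0.387 (KM-H2 library 0) to 2.31 (L1236 library 1) times that of Reh library 0. The correlation between duplicates across genes was 0.985 in Reh, 0.970 in PMA-treated Reh and 0.977 in Namalwa, and 0.922 in KM-H2, 0.919 in L1236 and 0.906 in L428.

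Differences were tested with limma on log2(FPKM + 1), in 1 fit over all 12 libraries unless stated otherwise. A gene was called when its adjusted p was under 0.05 and its difference at least 1 on that scale. A difference on this scale understates the change of a gene with low values. In bulk RNA, a lower level in every cell and fewer cells carrying the transcript cannot be told apart.

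**Figure D1:**
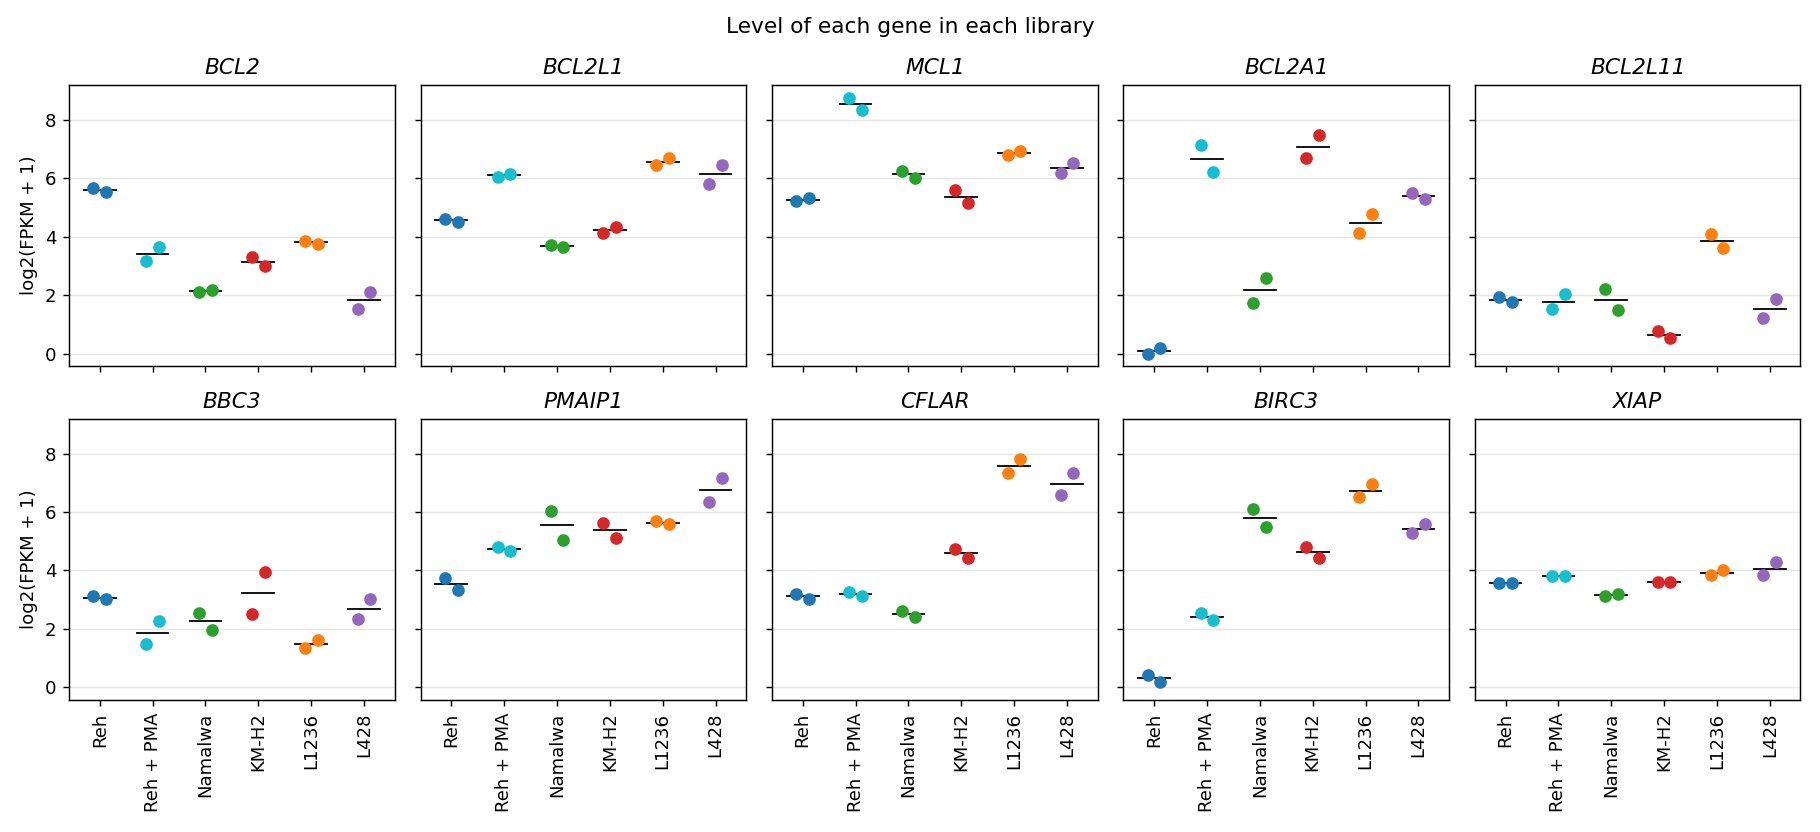
Level of each of the 10 genes in each of the 12 libraries, as log2(FPKM + 1), by condition. Points are libraries (library 0 on the left, library 1 on the right) and the black line is their mean. BCL2A1 and BIRC3 sit near 0 in untreated Reh and higher in every other condition, BCL2A1 least so in Namalwa and BIRC3 least so after PMA, whereas XIAP is nearly level over the 6 conditions.

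BCL2, the founding survival gene of the family, was highest in untreated Reh, at 50.3 and 45.6 FPKM. It stood at 7.99 and 11.6 FPKM after PMA and at 3.28 and 3.52 FPKM in Namalwa. The cHL libraries had 8.82 and 7.04 FPKM in KM-H2, 13.3 and 12.6 FPKM in L1236, and 1.85 and 3.36 FPKM in L428. Both untreated Reh libraries thus lay above all 10 others, and Namalwa and L428 overlapped at the bottom. PMA lowered BCL2 by a log2 difference of -2.20 ± 0.25 (SE; limma adjusted p = 0.000354). Namalwa was lower than Reh by -3.47 ± 0.25 (adjusted p = 1.04e-05). Each cHL line was likewise called lower than Reh, from -1.81 in L1236 to -3.79 in L428. Against Namalwa, however, L1236 (1.67) and KM-H2 (1.01) were called higher and L428 (-0.32, adjusted p = 0.356) was not called, so BCL2 had no call in the same direction against both controls in any cHL line.

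BCL2L1, which encodes BCL-xL, was at 23.7 and 22.0 FPKM in Reh, 65.8 and 70.5 FPKM after PMA, and 12.2 and 11.4 FPKM in Namalwa. In the cHL lines it was at 16.6 and 19.4 FPKM in KM-H2, 86.6 and 103 FPKM in L1236, and 55.4 and 86.7 FPKM in L428. L1236, L428 and PMA-treated Reh formed a high group with no overlap with the other 3 conditions. PMA raised BCL2L1 by 1.54 ± 0.23 (SE; limma adjusted p = 0.00124). L1236 exceeded Reh by 2.00 and Namalwa by 2.90, and L428 exceeded them by 1.56 and 2.46, all called. KM-H2 was called against neither control and lay 2.33 below L1236 and 1.89 below L428 (both called). The table gives 1 value per gene, so BCL-xL and the short, death-promoting BCL-xS form of the same gene were not separated.

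BCL2L1 shares 1735 exonic bases with ABALON, a non-coding gene on the opposite strand. ABALON was at 57.2 FPKM in library 0 of L1236 and 0.755 FPKM in library 1, and at 36.4 and 0.344 FPKM in the libraries of L428. In both lines BCL2L1 was higher in the library where ABALON was near 0. In PMA-treated Reh, ABALON was at 0.562 and 0.496 FPKM, against 18.0 and 17.6 FPKM in untreated Reh, where BCL2L1 was lower. KM-H2 had 15.0 and 11.0 FPKM of ABALON and Namalwa 10.1 and 8.84 FPKM. Between duplicates, ABALON was lower and BCL2L1 higher in library 1 of KM-H2 and of PMA-treated Reh as well, whereas in untreated Reh and Namalwa both were lower in library 1. The libraries were stranded, but the sources used here do not say whether the quantification used strand. How far reads of one gene were assigned to the other was not tested.

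MCL1, a survival gene whose protein is short-lived, was at 36.1 and 39.5 FPKM in Reh and at 434 and 328 FPKM after PMA. Namalwa had 74.8 and 64.4 FPKM. The cHL lines had 47.3 and 34.3 FPKM in KM-H2, 112 and 121 FPKM in L1236, and 72.6 and 92.1 FPKM in L428. The PMA-treated libraries were above all others, and KM-H2 overlapped untreated Reh. The rise with PMA was 3.29 ± 0.24 on the log2 scale (limma adjusted p = 2.37e-05), or 9.76-fold. L1236 (1.60) and L428 (1.09) were called higher than Reh but not higher than Namalwa, from which they differed by 0.74 and 0.23. KM-H2 differed from Reh by 0.09, with a 95% confidence interval of -0.44 to 0.62.

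BCL2A1 varied most of the 10. It was at 0 and 0.149 FPKM in untreated Reh, 139 and 73.7 FPKM after PMA, and 2.29 and 5.07 FPKM in Namalwa. The cHL lines had 102 and 179 FPKM in KM-H2, 16.4 and 26.8 FPKM in L1236, and 44.0 and 38.4 FPKM in L428. All 8 libraries of the cHL lines and of PMA-treated Reh lay above the 4 of the untreated controls. PMA raised BCL2A1 by 6.58 ± 0.42 (limma adjusted p = 1.18e-05). The size of that difference depends on the pseudocount, because Reh was near 0: with 0.1 in place of 1 FPKM it was 9.33. Against Namalwa, the control with the higher level, KM-H2 was higher by 4.93, L428 by 3.24 and L1236 by 2.30, all called. Namalwa itself was called above Reh (2.06), a call lost without Namalwa library 1 (1.62, adjusted p = 0.0524, between 0.000295 and 0.0524 over all alternatives). KM-H2 was also above L1236 (2.63) and L428 (1.69), both called.

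Because FPKM is expressed per transcript length, the levels of the 4 survival genes can be set side by side within a library. In untreated Reh, BCL2 made up 45.7 and 42.5% of their summed FPKM, more than any of the other 3 genes. After PMA its share was 1.23 and 2.40%, and MCL1 made up 67.1 and 67.8%. The sum rose from a mean of 109 ± 2.04 FPKM (SD, n = 2) in Reh to 566 ± 116 FPKM after PMA, with no overlap between the libraries. Namalwa had the smallest sum, 88.5 ± 5.74 FPKM, of which MCL1 made up 80.8 and 76.3%.

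In the 3 cHL lines, BCL2A1 had the largest share in KM-H2 and MCL1 in L1236 and L428. In KM-H2 (207 ± 46.2 FPKM) BCL2A1 made up 58.3 and 74.7%. In L1236 (246 ± 24.6 FPKM) MCL1 and BCL2L1 led, with means of 47.4 and 38.6%. In L428 (197 ± 33.0 FPKM) MCL1 had a mean of 41.8%, BCL2L1 35.6% and BCL2A1 21.3%. The share of BCL2 was at most 5.84% in any cHL library. These shares are a description and were not tested.

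**Figure D2:**
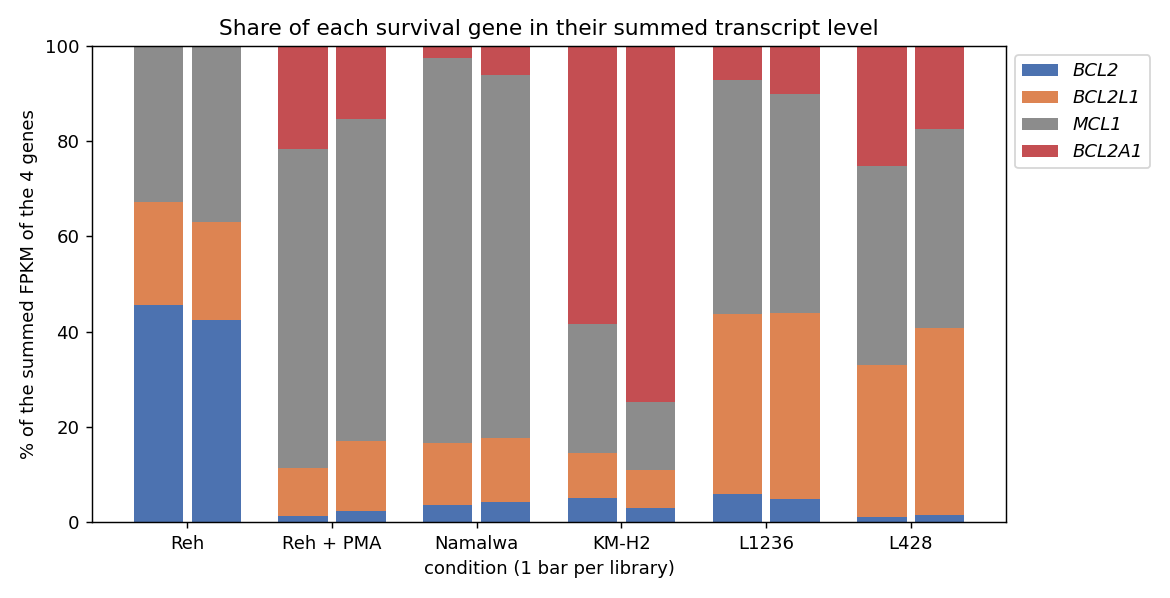
Share of BCL2, BCL2L1, MCL1 and BCL2A1 in their summed FPKM, in percent, with 1 stacked bar for each of the 12 libraries. BCL2 is the largest share in both untreated Reh libraries, MCL1 after PMA and in Namalwa, and BCL2A1 in KM-H2, where it reaches 74.7%.

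Of the BH3-only genes, PMAIP1, which encodes NOXA, a binder of MCL1 and A1, was at 12.3 and 9.14 FPKM in Reh and 26.7 and 24.3 FPKM after PMA. Namalwa had 65.0 and 32.2 FPKM. The cHL lines had 48.0 and 33.8 FPKM in KM-H2, 50.9 and 46.7 FPKM in L1236, and 80.1 and 144 FPKM in L428. Untreated Reh was lowest without overlap, and L428 was highest. Each cHL line was called higher than Reh, by 1.83 in KM-H2, 2.10 in L1236 and 3.22 in L428. Only L428 was also called against Namalwa, by 1.21 ± 0.37 (limma adjusted p = 0.0271), and that call was lost without Namalwa library 1 (0.72), without L428 library 1 (0.79) or with only L428, Reh and Namalwa in the fit (1.21), its adjusted p running from 0.0101 to 0.193 over the alternatives. The rise with PMA was 1.19 ± 0.37 (adjusted p = 0.0382). It was not called when any of the 4 Reh libraries was left out, with differences of 0.99 to 1.38, nor without the filter (adjusted p = 0.0594, between 0.0308 and 0.19 over all alternatives).

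BCL2L11, which encodes BIM, a BH3-only protein able to bind all the survival proteins, was low in most libraries. It was at 2.80 and 2.38 FPKM in Reh, 1.88 and 3.08 FPKM after PMA, and 3.60 and 1.81 FPKM in Namalwa. In the cHL lines it was at 0.697 and 0.450 FPKM in KM-H2, 16.2 and 11.4 FPKM in L1236, and 1.30 and 2.64 FPKM in L428. L1236 stood above and KM-H2 below all other libraries, and the remaining 4 conditions overlapped. L1236 was higher than Reh and than Namalwa by 2.02 ± 0.33 (limma adjusted p = 0.000971 and 0.00109). KM-H2 was lower than Reh by -1.19 and than Namalwa by -1.20 (adjusted p = 0.0161 and 0.0172). The KM-H2 call was lost without either Reh library, without Namalwa library 0 or without KM-H2 library 1, with the smaller difference at -0.84 to -1.20 and the larger adjusted p between 0.0561 and 0.12 (0.00819 to 0.12 over all alternatives). PMA changed BCL2L11 by -0.07, with a 95% confidence interval of -0.81 to 0.68.

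BCL2L11 also shares exonic bases (727) with a non-coding gene of the opposite strand, MIR4435-2HG. That gene was at 0 in both Reh libraries and at 57.4 and 23.8 FPKM after PMA. It was at 25.8 and 22.6 FPKM in KM-H2, 8.22 and 7.91 FPKM in L1236, and 56.9 and 29.4 FPKM in L428. Namalwa had 0 and 0.640 FPKM. In PMA-treated Reh, Namalwa and L428, BCL2L11 was higher in the library where MIR4435-2HG was lower, whereas in KM-H2 and L1236 both were higher in library 0. How far reads of one gene were assigned to the other was not tested here either.

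BBC3, the gene of PUMA, was at 7.64 and 7.10 FPKM in Reh, 1.76 and 3.82 FPKM after PMA, and 4.84 and 2.89 FPKM in Namalwa. In the cHL lines it was at 4.64 and 14.5 FPKM in KM-H2, 1.54 and 2.09 FPKM in L1236, and 4.05 and 7.13 FPKM in L428. In the order of the means every condition overlapped its neighbours, and the KM-H2 libraries spanned most of the range. The difference with PMA, -1.20 ± 0.48, was not called (limma adjusted p = 0.0885). L1236 was called lower than Reh (-1.58, adjusted p = 0.0270) but not than Namalwa (-0.77), and BBC3 had no call in the same direction against both controls in any cHL line.

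CFLAR, the gene of c-FLIP, separated the cHL lines from the other conditions. It was at 8.22 and 7.11 FPKM in Reh, 8.58 and 7.69 FPKM after PMA, and 5.16 and 4.30 FPKM in Namalwa. The cHL lines had 25.8 and 20.7 FPKM in KM-H2, 161 and 224 FPKM in L1236, and 95.5 and 159 FPKM in L428. All 6 cHL libraries lay above the 6 others, and KM-H2 lay below L428 and L1236, which did not overlap. Against Reh, the control with the higher level, the difference was 1.48 ± 0.27 in KM-H2, 4.46 ± 0.27 in L1236 and 3.85 ± 0.27 in L428 (limma adjusted p = 0.00193, 1.69e-06 and 4.66e-06). L1236 and L428 each exceeded KM-H2 (differences of KM-H2 from them of -2.98 and -2.37, both called). PMA moved CFLAR by 0.08, with a 95% confidence interval of -0.54 to 0.69, within the overlap of the treated and untreated libraries. The long and short forms of c-FLIP come from this 1 gene and were not separated. The antisense gene CFLAR-AS1, which shares 777 exonic bases with it, was at most 2.09 FPKM. CFLAR also shares 1488 exonic bases with the opposite-strand gene IMPDH1P10 and 445 with a same-strand gene without a symbol, and neither has values in the table.

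BIRC3, the gene of cIAP2, was at 0.348 and 0.122 FPKM in Reh and 4.79 and 3.93 FPKM after PMA, but at 67.6 and 43.7 FPKM in Namalwa. In the cHL lines it was at 27.0 and 20.7 FPKM in KM-H2, 90.2 and 123 FPKM in L1236, and 37.5 and 47.1 FPKM in L428. Untreated Reh was lowest and L1236 highest, without overlap, and Namalwa overlapped L428. The 2 controls thus differed by 5.49 ± 0.27 (limma adjusted p = 9.94e-07). PMA raised BIRC3 by 2.12 ± 0.27 (adjusted p = 0.000596), to a level still below every Namalwa and cHL library. Every cHL line was called higher than Reh, by 4.33 to 6.43. Against Namalwa, KM-H2 was called lower (-1.17), L428 was not called (-0.36) and L1236 was higher by 0.94, just under the threshold of 1. Without Namalwa library 0 or without L1236 library 0, L1236 was called against both controls (1.25 and 1.16, adjusted p = 0.0143 and 0.0302, from 0.0143 to 0.154 over all alternatives).

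XIAP, the direct inhibitor of the executioner caspases, varied least. It was at 11.0 and 11.0 FPKM in Reh, 13.0 and 13.0 FPKM after PMA, and 7.69 and 8.15 FPKM in Namalwa. The cHL lines had 11.1 and 11.2 FPKM in KM-H2, 13.3 and 15.2 FPKM in L1236, and 13.3 and 18.5 FPKM in L428. Namalwa was lowest without overlap, and no comparison of this gene was called. L428 exceeded Namalwa by 0.91 (limma adjusted p = 0.00451) and L1236 by 0.77 (adjusted p = 0.0106), both under the threshold of 1. The difference with PMA was 0.23, with a 95% confidence interval of -0.20 to 0.66.

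Over the 6 condition means, BCL2A1 had a range of 6.99 on the log2 scale, BIRC3 6.43 and CFLAR 5.06. XIAP had a range of 0.91. The median range of the 10 genes was 3.25, against 1.69 for all 14679 genes tested. This is a description only, because the 10 were chosen with earlier results of these data known. The scale also understates the range of genes with low values.

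BIRC3 and CFLAR are shown here with the sequence around a transcription start, as the 2 of the 10 genes with an entry that held a κB match. RefSeq held promoter entries (250 bases before to 50 after a start, GRCh38.p14) for 9 of the 10 genes, 15 entries in all, and none for MCL1. A κB motif, searched on both strands, was found in 5.91% of 35116 promoters. The BIRC3 entry, on the plus strand at chr11:102317234-102317533, held 2 matches, in capitals, with first bases 199 and 135 before the start. The first of 4 CFLAR entries, on the plus strand at chr2:201118466-201118765, held 1 match with its first base 97 before the start.
BIRC3: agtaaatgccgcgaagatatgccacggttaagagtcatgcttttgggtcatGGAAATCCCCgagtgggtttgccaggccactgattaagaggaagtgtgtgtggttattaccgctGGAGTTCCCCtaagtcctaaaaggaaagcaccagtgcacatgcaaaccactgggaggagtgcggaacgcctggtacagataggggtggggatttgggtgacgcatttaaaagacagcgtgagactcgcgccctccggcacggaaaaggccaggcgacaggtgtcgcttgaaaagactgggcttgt
CFLAR: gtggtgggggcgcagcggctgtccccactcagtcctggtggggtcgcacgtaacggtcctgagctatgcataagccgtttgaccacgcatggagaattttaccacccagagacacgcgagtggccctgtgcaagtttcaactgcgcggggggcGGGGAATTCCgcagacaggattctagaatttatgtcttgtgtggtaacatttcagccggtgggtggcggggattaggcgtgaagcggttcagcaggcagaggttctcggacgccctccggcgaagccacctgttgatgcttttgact
The entries of the other 7 genes, BCL2A1 among them, held no κB match in their windows. The AP-1 motif TGANTCA was found in 7.71% of promoters, and among the 10 genes in the entry of BBC3 and in another entry of CFLAR. The EGR motif GCGNGGGCG was found in 9.43% of promoters, and among the 10 genes in the entry of BCL2L11. A match describes the letters only, and binding was not measured in these libraries.

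The response to PMA could also be read as a count. 5 of the 10 genes were called higher (BCL2A1, MCL1, BIRC3, BCL2L1 and PMAIP1), where 10.5% of all genes tested were, and 1 was called lower (BCL2), where 11.8% were. The median difference of the 10 was 0.71, against -0.03 for all genes tested. BBC3, BCL2L11, CFLAR and XIAP were not called.

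The question of which genes set each cHL line apart from both control lines was addressed by requiring a call against Reh and against Namalwa in the same direction. KM-H2 had 2 of 10 genes higher (BCL2A1 and CFLAR), where 11.9% of genes tested were, and 1 lower (BCL2L11), where 6.96% were. L1236 had 4 higher (BCL2L1, BCL2A1, BCL2L11 and CFLAR) against 10.9%, and 0 lower by limma, also at an unadjusted p under 0.05, against 6.61%. L428 had 4 higher (BCL2L1, BCL2A1, PMAIP1 and CFLAR) against 11.0%, and 0 lower by limma, also at an unadjusted p under 0.05, against 7.13%. The 3 comparisons share both controls and are not independent of each other. In each of them the cHL line and the controls also differed in medium, which cannot be told apart from the diagnosis.

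**Figure D3:**
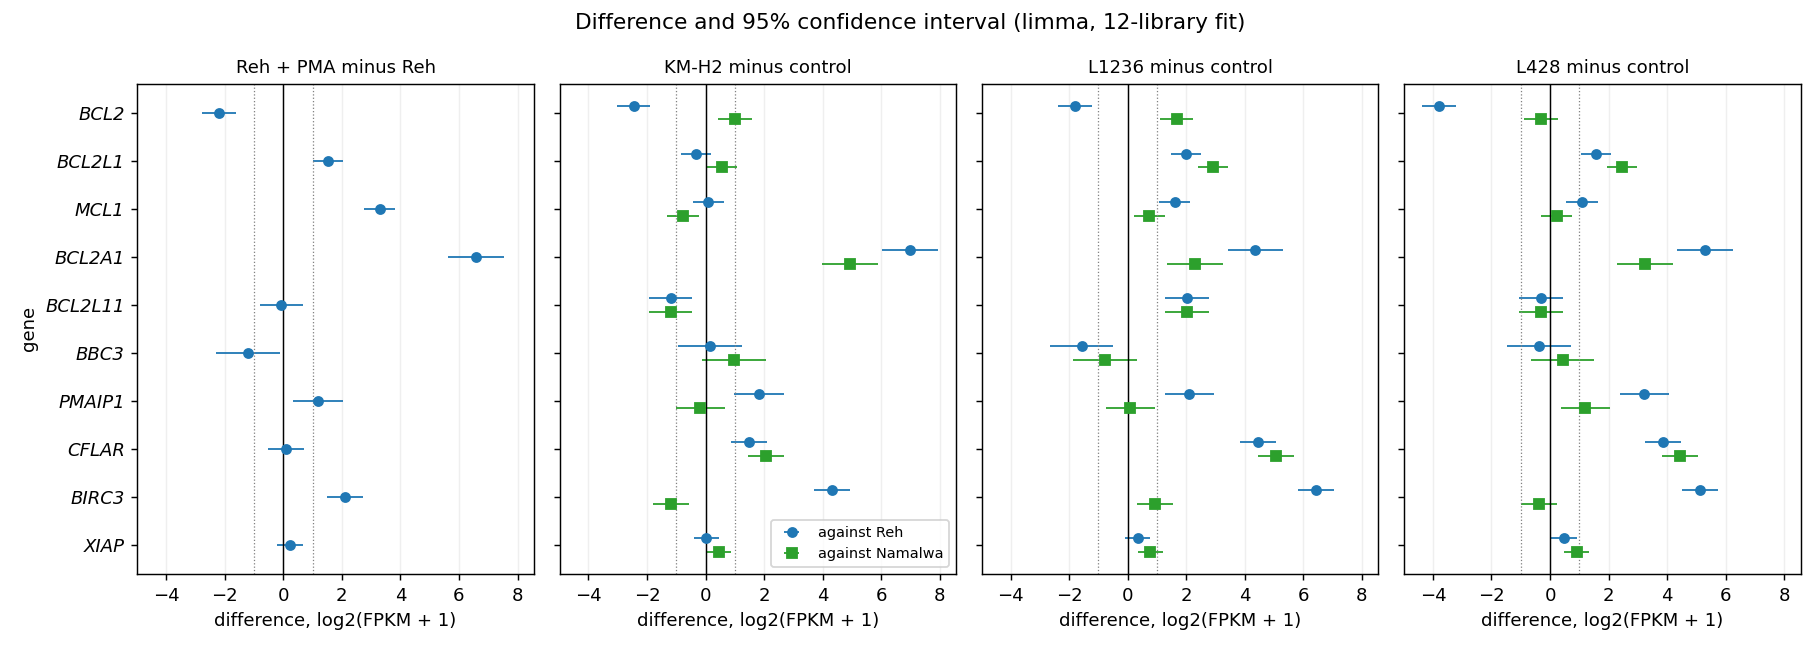
Difference on the log2(FPKM + 1) scale with its 95% confidence interval for each of the 10 genes, for PMA-treated Reh against Reh and for each cHL line against Reh (circles) and Namalwa (squares). Dotted lines mark a difference of 1 in either direction. BCL2A1 and CFLAR lie to the right for both controls in all 3 cHL lines. BCL2 in KM-H2 and L1236, and BIRC3 in KM-H2 and L428, change side with the control. So do BCL2L1, MCL1 and PMAIP1 in KM-H2 and BBC3 in L428.

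With the cell line as the replicate, 3 cHL lines against 2 controls, none of the 10 genes was called in either direction. limma called 47 genes higher (0.320% of those tested) and 33 lower (0.225%). At an unadjusted p under 0.05, 2 of the 10 passed, both higher, against 13.5% of all genes tested in either direction. These were BCL2A1, with a difference of 4.52 ± 0.97 (adjusted p = 0.169), and CFLAR, with 3.56 ± 0.91 (adjusted p = 0.216). In both, all 3 cHL lines lay above both controls. With libraries as replicates, 5 of the 10 were called higher (BCL2L1, BCL2A1, PMAIP1, BIRC3 and CFLAR), where 13.7% of all genes tested were, a setting in which the spread between lines does not count. The number of genes called by line rested on each line: by limma it was 0 in both directions without KM-H2, L1236, L428 or Reh, and 18 higher and 165 lower without Namalwa.

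The cHL lines differed among themselves in 9 of the 10 genes by limma's moderated F-test with a range of at least 1, where 42.2% of all genes tested did. XIAP was the exception (adjusted p = 0.149). BCL2L11 had the widest range between cHL lines, 3.22, followed by CFLAR with 2.98 and BCL2A1 with 2.63. The calls of BBC3 (range 1.74, adjusted p = 0.0337) and PMAIP1 (1.39, adjusted p = 0.0243) were lost with only the cHL libraries in the fit (adjusted p = 0.136 and 0.0631, from 0.00771 to 0.16 and from 0.0167 to 0.182 over all alternatives). BBC3 was also not called without the filter, without KM-H2 library 1 or without either L1236 library, with ranges of 1.19 to 1.88, and PMAIP1 without KM-H2 library 1, L1236 library 1 or L428 library 1. The range of PMAIP1 was then 0.97 to 1.39.

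The 2 controls also differed. Namalwa had 3 of the 10 genes higher than Reh (BIRC3, BCL2A1 and PMAIP1), where 7.50% of all genes tested were, and 1 lower (BCL2), where 11.5% were. The difference in PMAIP1, 2.01, was not called with only the Namalwa and Reh libraries in the fit (adjusted p = 0.0633, from 0.00257 to 0.0633 over all alternatives).

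Other genes of the pathway were described by list. Beside the counts below, of all genes tested 10.5% were called higher and 11.8% lower with PMA, and against both controls 11.9 and 6.96% in KM-H2, 10.9 and 6.61% in L1236, and 11.0 and 7.13% in L428. At an unadjusted p under 0.05 these shares were 19.2 and 23.4% with PMA, 18.5 and 13.6% in KM-H2, 17.5 and 13.1% in L1236, and 18.0 and 13.7% in L428. For Namalwa against Reh, 7.50% were called higher and 11.5% lower. In the death receptor list, 12 of 13 genes were tested, and PMA raised 5 (3 to 5 over all alternatives) and lowered 1 (0 to 1). TRAF1, an adaptor of TNF receptors that binds cIAP2, went from 1.02 and 0.804 FPKM to 18.5 and 14.8 FPKM (difference 3.20, adjusted p = 4.39e-05). FAS, the receptor, went from 1.26 and 3.29 FPKM to 21.1 and 8.58 FPKM (2.22, adjusted p = 0.00903), and the TRAIL receptor gene TNFRSF10A rose by 1.53. TNFSF10, which encodes TRAIL itself, fell (-1.82, adjusted p = 0.00938). These calls were lost in some settings: that of FAS without Reh library 0, without PMA-treated Reh library 0 or with only these 2 conditions in the fit (adjusted p from 0.00803 to 0.0799 over all alternatives), that of TNFRSF10A in the last of these (0.00377 to 0.0567), and that of TNFSF10 without either Reh library or PMA-treated Reh library 1 (0.00192 to 0.0589). TNFSF10 was instead higher against both controls in KM-H2 (24.3 and 26.4 FPKM) and L428 (57.1 and 103 FPKM), against 3.90 and 3.96 FPKM in Reh and 5.03 and 5.99 FPKM in Namalwa, with 2.02 and 3.58 as the smaller differences from a control (adjusted p = 0.00359 and 0.000114). The same list had 5 genes higher and 0 lower against both controls in KM-H2 (1 lower at an unadjusted p under 0.05 by limma), 3 higher and 2 lower in L1236, and 4 higher and 1 lower in L428.

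FAS and TRAF1 were among the higher genes in each cHL line. FAS was at 39.0 and 75.1 FPKM in KM-H2, 44.0 and 50.3 FPKM in L1236, and 88.0 and 161 FPKM in L428, against 2.35 and 2.16 FPKM in Namalwa. It was also called in the test over line means (4.42, adjusted p = 0.0411), in which it was the 1 gene called among all the lists. That call was lost without the filter, without KM-H2 library 1, either L1236 library or L428 library 0, and without any of the 5 lines, with differences of 4.01 to 4.68 (adjusted p from 3.62e-06 to 0.187 over all alternatives). TRAF1 reached 33.9 and 31.8 FPKM in KM-H2, 10.5 and 14.3 FPKM in L1236, and 69.5 and 111 FPKM in L428, against 0.961 and 0.864 FPKM in Namalwa. In L1236, TRAF2, which links cIAP proteins to TNF receptors, was listed at 0 in both libraries, against 18.5 and 21.2 FPKM in Namalwa. TNFRSF1A, the main TNF receptor, was lower in L1236 (-2.07) and L428 (-2.90), each the smaller of the 2 differences from a control.

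Among 7 tested BH3-only genes outside the 10, PMA lowered 1, BNIP3L (-1.42), and raised 0, also at an unadjusted p under 0.05 by limma. BID, which carries the signal of caspase-8 to the mitochondria, was lower in KM-H2 and L428. It was at 1.21 and 0.789 FPKM in KM-H2 and 0.584 and 0.205 FPKM in L428, against 12.1 and 22.4 FPKM in Namalwa and 23.4 and 33.8 FPKM in Reh. The smaller differences from a control were -3.14 and -3.66 (adjusted p = 6.25e-05 and 2.50e-05). BMF was higher in L428 (2.41). Namalwa had 3 BH3-only genes above Reh (2 to 3 over all alternatives) and 1 below. BMF (1.14) was called only in some settings: its call was lost without the filter, with median-ratio scaling and without any 1 of the 4 Namalwa and untreated Reh libraries (adjusted p from 0.0395 to 0.227 over all alternatives). The gene BIK was at 22.4 and 41.9 FPKM in Namalwa and at 0.785 and 0.407 FPKM in Reh, and HRK at 23.0 and 18.7 FPKM against 0.582 and 0.315 FPKM.

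Of 8 inhibitor of apoptosis genes and antagonists, PMA raised 1 and lowered 1. BIRC7, which encodes livin, went from 20.3 and 32.4 FPKM to 513 and 550 FPKM (4.32, adjusted p = 4.03e-06), and was at most 0.0378 FPKM in any other line. XAF1, an antagonist of XIAP, went from 7.66 and 9.70 FPKM to 0.288 and 0.595 FPKM (-2.75, adjusted p = 0.00268). Against both controls, BIRC5, the gene of survivin, was lower in L1236 (-1.72), and no gene of this list was called in KM-H2 (2 higher and 1 lower at an unadjusted p under 0.05 by limma) or in L428 (0 in both directions). Some alternatives called further genes of this list, with PMA and in each cHL line. Of the other survival genes, BCL2L10 had a mean of 12.5 ± 0.71 FPKM (SD, n = 2) in L428 and at most 0.159 FPKM in every other library, and was listed at 0 in Reh and Namalwa. It passed the filter through its 2 L428 libraries alone.

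The 2 tested effector genes, BAX and BAK1, were not called with PMA or in any cHL line against both controls, and 0 passed an unadjusted p under 0.05 by limma. Of 7 apoptosome and caspase genes, the 1 called in these comparisons was CASP6 in L1236 (1.37). Some alternatives also called another gene of this list higher with PMA, or lower in KM-H2 or in L1236. At an unadjusted p under 0.05, 1 was higher and 1 lower with PMA, 0 and 1 in KM-H2, 1 and 2 in L1236, and 0 and 0 in L428. Of 3 genes that govern MCL1 protein turnover, none was called with PMA (1 higher and 1 lower at an unadjusted p under 0.05 by limma). FBXW7 was lower in L1236 (-1.08) and L428 (-1.38), and HUWE1 was higher in KM-H2 (1.19) and L1236 (1.10). The HUWE1 calls were lost without the filter, with fewer conditions in the fit and in several leave-outs (0.68 to 1.19 in KM-H2 and 0.58 to 1.31 in L1236), as was that of FBXW7 in L1236 without L1236 library 0 (-0.91).

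In the NF-κB list of 8 genes, PMA raised 2, RELB (2.48) and NFKB2 (1.80), and lowered 0, also at an unadjusted p under 0.05 by limma. NFKB2, the precursor of the p52 subunit, was also higher in each cHL line, with the smaller of its 2 differences from a control at 2.75 in KM-H2, 1.76 in L1236 and 2.28 in L428. The list had 2 genes higher in KM-H2, 4 in L1236 and 2 in L428, and 0 lower (at an unadjusted p under 0.05 by limma, 0 in KM-H2 and L1236 and 1 in L428). Over all alternatives the numbers higher were 1 to 3, 2 to 4 and 1 to 3. Without Namalwa library 0 or L1236 library 1, NFKB1 and NFKBIE were not called in L1236, nor was NFKB1 without Namalwa library 1. NFKBIA was not called in KM-H2 without Reh library 0 or KM-H2 library 0, and TNFAIP3 was not called in L428 without Reh library 1 or L428 library 1. TNFAIP3, a feedback inhibitor, was at 246 and 355 FPKM in L428, 95.2 and 73.8 FPKM in Reh, and 5.07 and 16.6 FPKM in KM-H2, and its range among the cHL lines was 4.84. In Namalwa, RELB (3.36) was above and TNFAIP3 (-5.04) below Reh.

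**Figure D4:**
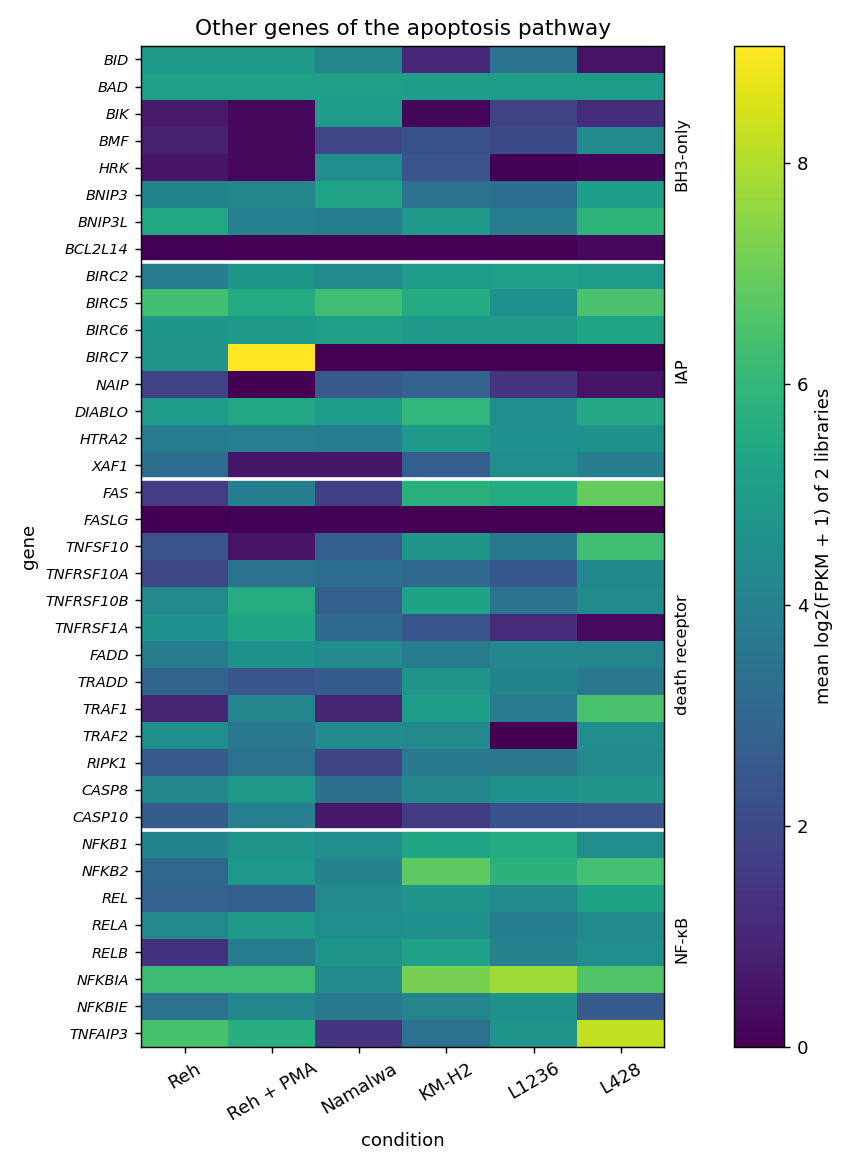
Mean log2(FPKM + 1) of the 2 libraries of each condition for the genes of 4 lists, with BH3-only genes at the top, then inhibitor of apoptosis (IAP) genes and antagonists, the death receptor pathway and NF-κB genes. BIRC7 stands out in PMA-treated Reh, and FAS and TRAF1 are brighter in the 3 cHL lines and PMA-treated Reh than in untreated Reh and Namalwa.

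For the 3 genes with the widest range, the 4 genes with the most similar pattern over the 12 libraries were found by Pearson correlation, as a description. For BCL2A1 these were SMPD1 (r = 0.950), JUNB (0.946), SBNO2 (0.942) and GOLPH3 (0.940). For BIRC3 they were NUP210 (r = 0.972), SS18L2 (0.953), HLA-DQA1 (0.945) and PFKFB2 (0.941). For CFLAR they were ARHGEF3 (r = 0.989), CPOX (0.988), DDX43 (0.986) and KLHL4 (0.986). The 12 libraries come in pairs from 6 conditions and are not independent points.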

How the data were processed

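Stranded total RNA libraries were made in duplicate by the authors, and the deposited table holds 1 FPKM value per gene and library. The submitters' processing notes name TopHat2 2.0.11, Cuffnorm 2.2.1, bedtools and hg19. Annotation, scaling and use of strand are not given in the sources used here. Columns were matched to conditions by name, and not to replicate numbers. No counts were used, so relative depth (0.387 to 2.31) came from ratios of low values between libraries, and limits precision most in KM-H2.

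Values were analysed as log2(FPKM + 1) with limma 3.58.1 (R 4.3.3, empirical Bayes with trend, Benjamini-Hochberg adjustment over 14679 genes), tested on simulated data. Figures and summaries used Python 3.11.15, pandas 2.3.3, numpy 2.4.6 and matplotlib 3.10.9. Exon overlaps were read from GENCODE on GRCh37. PMA-treated Reh, Namalwa and the cHL lines were compared in 1 fit of 6 condition means, which shares 1 estimate of the spread. The cHL lines were compared with the controls on 5 line means. Pathway genes were named from, per list and comparison, up to 4 called genes with the largest differences. The members and lists were chosen with earlier results of these data known. Alternatives were another pseudocount, no filter, median-ratio scaling, libraries or lines left out, fewer groups in the fit and the column number as a block.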

Additional observations from a re-analysis of the deposited data

How the results depend on the processing

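The comparisons of the 12-library fit and of line means were recomputed with a pseudocount of 0.1 FPKM, without a filter, with median-ratio scaling, with only the groups compared, and without each library or line. The factors of the median-ratio scaling ran only from 0.981 (PMA-treated Reh library 0) to 1.04 (Reh library 1). That setting was therefore close to the main one and tested little. Where a library was left out, the lone library of that condition was assumed to vary like the others. The planned fits with the replicate number of the titles as a block were not run, because the columns end in 0 and 1 and the titles in 1 and 2 with no key between them. A replicate block of the column number was added after seeing the data. Deviations of same-numbered libraries from the condition means correlated above 0 in 12 of 15 pairs of conditions, from -0.045 to 0.681 (L428 and L1236), with 0.427 for L1236 and KM-H2, 0.357 for Namalwa and Reh, and 0.301 for L428 and KM-H2. Not every pair was above 0.1, and whether the number marks a shared batch in some lines was not tested. With this block, PMA gave 1605 genes higher and 1851 lower in place of 1534 and 1731, and no call of the 10 genes changed in the 12-library fit.

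Outside the leave-outs, 122 of the counts of genes or of the 10 members kept within 1.5 times their main value and 8 did not, all of the latter in the test over line means. There the 47 genes higher and 33 lower became 8 and 3 without the filter, 2014 and 1600 with libraries as replicates, and 2024 and 1619 with the column number as a block added, and the members called higher went from 0 to 5 in both of the last settings. Without 1 library or line the same counts ran from 0 to 51 higher and from 0 to 165 lower. With PMA, leaving out a library gave 1042 to 1373 genes higher and 1040 to 1372 lower, and 1040 was reached without PMA-treated Reh library 0 and 1089 without Reh library 0. The 1 member lower in KM-H2, BCL2L11, became 0 to 1. The other counts of members moved by 2 or fewer. With 1 of 2 libraries left out, a share of the survival genes is that of the other library, as given by library, and this says nothing of its stability. Why these counts moved was not tested, beyond the fewer lines or libraries that the leave-outs hold by construction.

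Of 10 genes in 7 comparisons, differences changed sign in 15 cases, none of them called, and no pathway gene named outside the 10 changed sign. Sign changes were limited by construction. A range among the cHL lines cannot be negative, and a difference against both controls was set to 0 where the controls disagreed in sign. Pathway genes were named for large called differences, so the lack of sign changes among them follows in part from that choice. With a pseudocount of 0.1, BCL2L11 went to -0.03 in the test over line means and to -0.02 in Namalwa against Reh. Over the leave-outs, BCL2L11 ranged from -0.32 to 0.18 with PMA, from -0.35 to 0.36 in Namalwa against Reh and from -0.64 to 0.02 in L428, and CFLAR with PMA from -0.02 to 0.17. Over line means the ranges were -2.69 to 0.79 for BCL2, -0.75 to 0.86 for BCL2L11, -0.60 to 0.29 for BBC3 and -0.20 to 5.30 for BIRC3, with both ends of each reached by leaving out 1 line. The cause of these changes was not tested. Values near 0 FPKM rest on few fragments, most of all in KM-H2.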

Other observations

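The 3 BH3-only genes and the 4 survival genes among the 10 can be set against each other within a library, a summary added after the data were seen and given without a test. The summed FPKM of BCL2, BCL2L1, MCL1 and BCL2A1 was 4.84 and 5.76 times that of BCL2L11, BBC3 and PMAIP1 in untreated Reh, and 21.3 and 15.5 times after PMA. The ratio was 1.26 and 2.29 in Namalwa, 3.28 and 4.91 in KM-H2, 3.33 and 4.37 in L1236, and 2.03 and 1.44 in L428. For these genes alone, PMA-treated Reh thus had the highest ratios, and Namalwa and L428 the lowest. Survival and BH3-only genes outside the 10 are left out, and some of the latter were not small. BAD had means of 30.5 (L428) to 34.7 FPKM (PMA-treated Reh), and BID 28.6 FPKM in untreated Reh, 1.00 FPKM in KM-H2 and 0.394 FPKM in L428. The BH3-only sum of untreated Reh was 22.8 and 18.6 FPKM, so the order of the conditions may differ with these genes included, which was not computed. PMAIP1 made up 54.1 and 49.1% of the BH3-only sum in Reh, and 93.7 and 93.6% in L428. Transcript levels say nothing of the amount of each protein, which for MCL1 in particular is also set by turnover.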
